A study of Mus musculus with 6 samples.

Results

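The genes described here load peptides onto MHC class I in the endoplasmic reticulum (ER), together with *Nlrc5*, the transactivator of class I genes. They were chosen by symbol from the table of normalized counts and are *Tap1*, *Tap2*, *Tapbp*, *Tapbpl*, *Erap1*, *Calr*, *Canx*, *Pdia3*, and *Nlrc5*, 9 of the 26264 genes in the table. Bulk RNA-seq was performed on hematopoietic stem cells (HSCs; LSK CD150+ CD48-) sorted from the bone marrow of untreated 8-week-old female mice. The groups were 3 C57Bl/6 wild-type (WT) mice and 3 *Irf1-/-* mice (B6.129S2-Irf1 tm1Mak/J), with 1 library per mouse, and libraries are named here by genotype and replicate number (2, 3, and 4 in each genotype). *Irf1* was disrupted in the whole body, so effects of IRF1 loss inside and outside HSCs cannot be told apart. The strain name records a 129S2 origin of the allele, so DNA close to *Irf1* can differ between genotypes as well. Limma standard errors and *P* values below draw on the spread between mice and their libraries. They are moderated toward a trend of variance over all tested genes (the trend in the prior variance), so they do not measure the spread of a single gene alone.

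MHC class I carries peptides from cytosolic proteins to the cell surface, where CD8 T cells and NK cells read it. Peptides made by the proteasome are pumped into the ER by the TAP transporter, trimmed by ERAP1, and fitted into class I molecules held by tapasin, calreticulin, and ERp57, while the tapasin relative TAPBPR edits the bound peptide outside this complex. NLRC5 has no DNA-binding domain of its own and acts on class I promoters through RFX, NF-Y, and CREB family proteins, and IRF1 is an interferon-induced transcription factor known to act on several genes of this pathway.

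Between 43138521 and 59658080 reads were counted on genes per library, and each gene of the loading pathway had between 1614 reads (*Tapbpl*) and 42560 reads (*Pdia3*) in any library. In WT replicates 2, 3, and 4, *Irf1* itself was at 10122, 11120, and 12057.5 normalized counts, and in the *Irf1-/-* replicates at 9267, 9524, and 9287. All *Irf1-/-* values lay below all WT values, but reads on the gene remained at 84.3% of WT (log2 fold change, hereafter log2FC, −0.24 with SE 0.088, limma adjusted *P* = 0.17). Which part of the gene the allele removes was not analysed here, so total reads on *Irf1* are a weak check of the labels.

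All 10 HSC markers examined were counted, led by *Kit* (82582 normalized counts in WT, 82175 in *Irf1-/-* HSCs), and *Fgd5* was called higher in *Irf1-/-* HSCs (log2FC 0.83). Limma without a trend in the prior variance did not call *Fgd5* (adjusted *P* = 0.0511). *Procr* was higher (0.52, limma adjusted *P* = 0.0112) and *Ly6a* lower (−0.43, limma adjusted *P* = 0.0245), both short of the fold change threshold, and *Slamf1* (0.24), *Mecom* (0.30), and *Hlf* (0.25) had an unadjusted *P* under 0.05. WT replicate 4 stood apart by neutrophil markers, whose 8 genes summed to 7875 normalized counts against 402 in WT replicate 2, 362 in WT replicate 3, and 529, 539, and 930 in *Irf1-/-* replicates 2, 3, and 4. The most abundant of them was *Ngp* (2535 in WT replicate 4), none of the 8 was at 0 in every library, *Ly6g* had a mean under 10, and 0 were called in limma, edgeR, or DESeq2 (0 at an unadjusted *P* under 0.05). Of 7 erythroid markers, *Car1* (−3.51) and *Klf1* (−0.72) were called lower in *Irf1-/-* HSCs, the sum being 3152, 2867, and 3907 in WT and 1796, 884, and 1101 in *Irf1-/-* replicates 2, 3, and 4, and the globin genes *Hba-a1*, *Hbb-bs*, and *Hbb-bt* were at 0. *Car1* was not called without *Irf1-/-* replicate 3 (limma adjusted *P* = 0.0611) or 4 (0.0658), nor by edgeR (0.0887) or DESeq2 (0.198). Its log2FC ran from −4.77 to −2.60 with 1 library left out, and was −2.48 in edgeR and −0.17 in DESeq2 with a prior. *Klf1* was not called without replicate 2 or 3 of *Irf1-/-* (0.0576 and 0.0700) or of WT (0.119 and 0.107). Its log2FC was short of the threshold without *Irf1-/-* replicate 3 (−0.50) and in DESeq2 with a prior (−0.56). Limma without a trend in the prior variance called neither *Klf1* (adjusted *P* = 0.316) nor *Car1* (0.344). Of the markers of B cells, T cells, NK cells, monocytes and macrophages, dendritic cells, and stroma and endothelium, 0 were called in limma, edgeR, or DESeq2, and *Blnk* (0.96) and *Nkg7* (−0.34) had an unadjusted *P* under 0.05. *Emcn*, of the stroma and endothelium list, was higher in all *Irf1-/-* libraries but just short of the fold change threshold (0.576, limma adjusted *P* = 0.0101), with mean normalized counts of 1398 in WT and of 2084 in the *Irf1-/-* libraries. This list of 5 genes, of which 0 were at 0 in every library, summed to 1568, 1591, and 1520 normalized counts in WT and 2219, 2399, and 2204 in *Irf1-/-* replicates 2, 3, and 4, and *Emcn* made up most of each sum, while the log2FC of the others ranged from −0.62 (*Lepr*) to 0.62 (*Cxcl12*) with 0 called. The part of these cells in the results was not tested, and in bulk RNA fewer cells that express a gene and less RNA per cell cannot be told apart.

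Among the 9 genes, *Tapbpl*, *Erap1*, *Tap1*, and *Nlrc5* fell in *Irf1-/-* HSCs, *Tapbp* and *Tap2* were lower by less than the fold change threshold, and the general folding chaperones *Pdia3*, *Calr*, and *Canx* did not pass the limma test. Whether the chaperones changed less than the other genes was not tested, and *Pdia3* (−0.37 with SE 0.110) lay near *Tapbp* (−0.45 with SE 0.092). A gene was called when limma on log2(normalized count + 1) gave an adjusted *P* under 0.05 over 17404 tested genes and an absolute log2FC above 0.58. By this rule 4 of the 9 genes were called lower, where 0.954% of all tested genes were. Of the 9, 0 were called higher in limma, edgeR, or DESeq2 (0 at an unadjusted *P* under 0.05), where 0.96% of all tested genes were called higher in limma. Without a minimum fold change, 6 of the 9 had an adjusted *P* under 0.05 and were lower (1.49% of all tested genes). In 7 of the 9, every *Irf1-/-* library lay below every WT library (9.27% of all tested genes). The log2FC was below 0 for 9 of 9 genes, with a median of −0.52 against −0.0028 over all tested genes. Without WT replicate 4, the library with neutrophil markers, the same 4 genes were called, at log2FC values of −1.37 (*Tapbpl*), −0.84 (*Erap1*), −0.65 (*Nlrc5*), and −0.63 (*Tap1*). Of these, *Tap1* and *Nlrc5* lay near the fold change threshold, and *Tapbpl* and *Erap1* were the 2 genes called without *Irf1-/-* replicate 3. Limma without a trend in the prior variance called 1 of the 9, *Tapbpl*, where it called 33 of all tested genes lower.

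Levels were compared between genes as normalized counts per kilobase of exon, with the exons of all annotated transcripts of a gene merged. Which transcripts the HSCs use was not examined, so the order of levels between genes depends on this choice of length. In WT HSCs the chaperones were the most abundant, at 11536 ± 1450 (SD, *n* = 3) per kilobase for *Pdia3*, 11389 ± 1569 for *Calr*, and 7569 ± 717 for *Canx*. *Tap2* (6415 ± 1168) and *Tapbp* (5760 ± 347) followed. The spread between mice does not separate *Pdia3* from *Calr*, *Canx* from *Tap2*, or *Tap2* from *Tapbp*. *Tap1* stood lower, at 3372 ± 430 per kilobase. The peptidase gene *Erap1* (1936 ± 157) and *Tapbpl* (1859 ± 176) were at levels that their spread does not separate, and *Nlrc5* was the least abundant (743 ± 50.3). In *Irf1-/-* HSCs the levels per kilobase of this last trio were 1130 ± 38.6 for *Erap1*, 739 ± 35.3 for *Tapbpl*, and 486 ± 47.0 for *Nlrc5*. Thus, on this scale, *Erap1* and *Tapbpl*, which were level in WT HSCs, were apart in *Irf1-/-* HSCs.

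TAP is a heterodimer of TAP1 and TAP2, which uses ATP to move peptides across the ER membrane. *Tap1* had 16064, 20771, and 18565 normalized counts in WT replicates 2, 3, and 4 and 12829, 10932, and 11821 in the *Irf1-/-* replicates. The highest *Irf1-/-* library (replicate 2) was at 79.9% of the lowest WT library (replicate 2), so the genotypes did not overlap. The mean fell from 18467 ± 2355 (SD, *n* = 3) to 11861 ± 949, which is 64.2% of WT (log2FC −0.63 with SE 0.104, limma adjusted *P* = 0.00403). The fall was under the fold change threshold without *Irf1-/-* replicate 3 (−0.577, limma adjusted *P* = 0.0210), the lowest library, without WT replicate 3 (−0.55, limma adjusted *P* = 0.0150), the highest, and after quantile normalization (−0.57, limma adjusted *P* = 0.00965). Without a trend in the prior variance of limma the adjusted *P* was 0.202, the highest over the 18 alternative settings (lowest 2.27e-07, from DESeq2 with a prior).

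*Tap2*, the partner subunit, had 19227, 26020, and 27512 normalized counts in the WT replicates and 14787, 16370, and 19195 in the *Irf1-/-* replicates. WT replicate 2 was far below the other WT libraries and almost met *Irf1-/-* replicate 4, which was at 99.8% of it. The means were 24253 ± 4416 (SD, *n* = 3) in WT and 16784 ± 2233 in *Irf1-/-* HSCs, and the log2FC of −0.52 (SE 0.131, limma adjusted *P* = 0.0457) was short of the threshold. *Tap2* was called without *Irf1-/-* replicate 4 (−0.62, limma adjusted *P* = 0.0469) or without WT replicate 2 (−0.68, limma adjusted *P* = 0.00792), and its adjusted *P* was above 0.05 when any of the other 4 libraries was left out, at 0.203 without *Irf1-/-* replicate 2, 0.102 without *Irf1-/-* replicate 3, 0.154 without WT replicate 3, and 0.0794 without WT replicate 4. Over all 18 settings the adjusted *P* of *Tap2* ran from 0.00126 (DESeq2 with a prior) to 0.359 (limma without the trend). Whether the subunits changed unequally was asked with the ratio of *Tap1* to *Tap2* within each library. The log2 ratio was −0.38 ± 0.16 (SD, *n* = 3) in WT and −0.50 ± 0.26 in *Irf1-/-* HSCs, and this difference of −0.11 was within the spread between mice (exact two-sided permutation test, *P* = 0.6, where 3 mice against 3 can reach no less than 0.1). The difference rested on single libraries, and was −0.26, −0.068, and −0.0097 without *Irf1-/-* replicates 2, 3, and 4, and −0.049 and −0.20 without WT replicates 2 and 4.

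Tapasin, encoded by *Tapbp*, bridges class I molecules to TAP and keeps them open until a well-fitting peptide binds. *Tapbp* had 19377, 19901, and 17708 normalized counts in the WT replicates and 13325, 15323, and 13088 in the *Irf1-/-* replicates. The WT libraries were close together, and the highest *Irf1-/-* library (replicate 3) was at 86.5% of the lowest WT library (replicate 4). The mean was 18995 ± 1145 (SD, *n* = 3) in WT and 13912 ± 1227 in *Irf1-/-* HSCs (log2FC −0.45 with SE 0.092, limma adjusted *P* = 0.0158). The size was short of the fold change threshold in limma whichever library was left out (−0.52 to −0.41). The adjusted *P* also rose above 0.05 in 4 of these 6 fits, to 0.0767 without *Irf1-/-* replicate 2, 0.118 without *Irf1-/-* replicate 4, 0.0767 without WT replicate 2, and 0.0579 without WT replicate 3, and it ran from 4.85e-05 (DESeq2 with a prior) to 0.238 (limma without the trend) over the 18 settings.

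*Tapbpl* encodes TAPBPR, the tapasin relative that exchanges peptides on class I molecules away from TAP. It had 4136, 4850, and 4134 normalized counts in the WT replicates and 1831, 1704, and 1675 in the *Irf1-/-* replicates. All *Irf1-/-* libraries lay within a narrow band, the highest of them (replicate 2) at 44.3% of the lowest WT library (replicate 4). The mean fell from 4374 ± 413 (SD, *n* = 3) to 1737 ± 83.0, which is 39.7% of WT (log2FC −1.33 with SE 0.10, limma adjusted *P* = 3.01e-06). This was the largest fall among the 9 genes, and it was called under all 18 alternative settings, at −1.37 to −1.23. The ratio of *Tapbpl* to *Tapbp* within each library tested whether these peptide editors changed unequally. The log2 ratio was −2.23, −2.04, and −2.10 in the WT replicates and −2.86, −3.17, and −2.96 in the *Irf1-/-* replicates, without overlap. The difference of *Irf1-/-* from WT HSCs was −0.88 (exact permutation test, two-sided, *P* = 0.1, which is the least that this design can give).

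ERAP1 is an ER aminopeptidase that trims peptides to the length that class I molecules hold. *Erap1* had 9074, 9771, and 8306 normalized counts in the WT replicates and 5154, 5198, and 5486 in the *Irf1-/-* replicates. The *Irf1-/-* libraries were nearly level, and the highest of them (replicate 4) was at 66.1% of the lowest WT library (replicate 4). The mean fell from 9050 ± 733 (SD, *n* = 3) to 5279 ± 180, which is 58.3% of WT (log2FC −0.77 with SE 0.089, limma adjusted *P* = 2.21e-04). *Erap1* was called under 17 of 18 alternative settings, the exception being limma without a trend in the prior variance (adjusted *P* = 0.0746, the highest of these, where the lowest was 6.15e-15, from DESeq2 with a prior). The annotation of *Erap1* overlaps that of *Cast*, which encodes the calpain inhibitor calpastatin, and no use of strand is stated for the counting. *Cast* was at 5533 ± 254 normalized counts (SD, *n* = 3) in WT, and at 6184 ± 335 in the *Irf1-/-* libraries (log2FC 0.16, limma adjusted *P* = 0.400). The annotations of *Tapbp*, *Tapbpl*, *Pdia3*, and *Nlrc5* overlap other genes too, and those that were counted had means of at most 135 normalized counts in either genotype.

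Calreticulin (*Calr*), calnexin (*Canx*), and ERp57 (*Pdia3*) fold many glycoproteins besides class I, and none of their genes was called. *Pdia3*, whose product forms a disulfide bond with tapasin, had 35023, 41241, and 32372 normalized counts in the WT replicates and 25334, 31505, and 27261 in the *Irf1-/-* replicates. These did not overlap, though *Irf1-/-* replicate 3 came to 97.3% of WT replicate 4, and the log2FC was −0.37 (SE 0.110, limma adjusted *P* = 0.0937). *Calr* had 33708, 36798, and 27896 normalized counts in the WT replicates and 25507, 30250, and 27159 in the *Irf1-/-* replicates, and WT replicate 4 was below *Irf1-/-* replicate 3 (log2FC −0.24 with SE 0.110, limma adjusted *P* = 0.293). *Canx*, encoding the membrane-bound relative of calreticulin, had 29252, 35044, and 30782 in the WT and 27183, 30184, and 28849 in the *Irf1-/-* replicates, again with overlap (log2FC −0.14 with SE 0.094, limma adjusted *P* = 0.534). The libraries with the lowest *Calr*, *Irf1-/-* replicates 2 and 4 and WT replicate 4, also lay together on the first principal component over all tested genes (32.4% of the variance). Without WT replicate 4 the log2FC values were −0.45 for *Pdia3* (limma adjusted *P* = 0.0321), −0.35 for *Calr* (limma adjusted *P* = 0.050), and −0.16 for *Canx* (limma adjusted *P* = 0.401), and none was called. For *Pdia3* the adjusted *P* was also under 0.05 in DESeq2 (0.0103, or 0.0101 with a prior) and after quantile normalization of the limma values (0.0477), at log2FC values of −0.37, −0.34, and −0.27.

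*Nlrc5*, encoding the class I transactivator of the NLR family, had 5840, 5294, and 5141 normalized counts in the WT replicates and 3932, 3267, and 3452 in the *Irf1-/-* replicates. Replicate 2 was the highest library in each genotype, and *Irf1-/-* replicate 2 was at 76.5% of the lowest WT library (replicate 4). The mean fell from 5425 ± 367 (SD, *n* = 3) to 3550 ± 343, which is 65.4% of WT (log2FC −0.61 with SE 0.098, limma adjusted *P* = 0.00323). *Nlrc5* was called under 13 of 18 alternative settings. Its fall was short of the fold change threshold without *Irf1-/-* replicate 3 (−0.56, limma adjusted *P* = 0.0170), without WT replicate 2 (−0.56, limma adjusted *P* = 0.0203), after quantile normalization (−0.578, limma adjusted *P* = 0.00838), and in DESeq2 with a prior on the fold change (−0.56). Without a trend in the prior variance of limma the adjusted *P* was 0.164, the highest over these settings (lowest 4.68e-07, from DESeq2 with a prior).

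NLRC5 and CIITA, the class II transactivator, are related proteins that act on the same kind of promoter module. *Ciita* had 393, 611, and 638 normalized counts in the WT replicates and 272, 170, and 163 in the *Irf1-/-* replicates (log2FC −1.44 with SE 0.248, limma adjusted *P* = 0.00580). The log2 ratio of *Nlrc5* to *Ciita* was 3.34 ± 0.48 (SD, *n* = 3) in WT and 4.17 ± 0.28 in *Irf1-/-* HSCs. WT replicate 2 (3.89) overlapped *Irf1-/-* replicate 2 (3.85), and the difference of 0.83 did not reach the smallest *P* of the design (exact two-sided permutation test, *P* = 0.2).

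The libraries within a genotype ranked the 9 genes in different ways. WT replicate 3 was the highest WT library for 7 of the 9 and the lowest for 0, and WT replicate 4 was the lowest for 6 of the 9. Among *Irf1-/-* libraries, replicate 3 was the highest for *Tapbp*, *Calr*, *Canx*, and *Pdia3* but the lowest for *Tap1* and *Nlrc5*. The spread between mice, as SD in percent of the mean, was widest for *Tap2* (18.2% in WT and 13.3% in *Irf1-/-* HSCs) and narrowest for *Erap1* among *Irf1-/-* HSCs (3.42%).

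Likeness of pattern was measured as the root mean square difference of centred log2 values over the 6 libraries, among 12068 genes with a mean of at least 100 normalized counts. The genes closest to *Nlrc5* were *Scly* (0.0766), *Micu3* (0.0786), *Ddx60* (0.0790), *Kif24* (0.0812), and *Dcp2* (0.0830). Those closest to *Tap1* were *Tbxa2r* (0.0497), *Fyb* (0.0825), *Ifit2* (0.0937), *Rap1b* (0.103), and *Rgs10* (0.103). Among the loading genes, *Erap1* was nearest to both, at place 63 in the order from *Nlrc5* and place 34 in that from *Tap1*, while *Tapbpl*, with its larger fall, was at places 7427 and 5488. Such an order over 6 libraries follows the genotype difference and the deviations of single mice together.

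Class I molecules themselves and the genes that supply their peptides were examined beside the loading genes. Of the class I products, *B2m*, the invariant light chain, fell (log2FC −0.62 with SE 0.092, limma adjusted *P* = 0.00203), from 100134 ± 1581 (SD, *n* = 3) to 65021 ± 2772 normalized counts. The heavy chains *H2-K1* (−0.50, limma adjusted *P* = 0.0178) and *H2-D1* (−0.44, limma adjusted *P* = 0.0130) were lower in all *Irf1-/-* libraries but short of the fold change threshold, and their values are uncertain because near-identical class I genes can share reads. This list had 1 of 3 genes called lower and a median of −0.50, close to the −0.52 of the loading genes.

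In the supply of peptides, all 5 genes of the immunoproteasome and its PA28 activator were called lower, with a median log2FC of −0.86. These were the catalytic subunits *Psmb9* (−0.98, limma adjusted *P* = 9.98e-06), *Psmb10* (−0.96), and *Psmb8* (−0.86), and the activator subunits *Psme2* (−0.85) and *Psme1* (−0.583). *Psme1* was just past the threshold and was not called when replicate 2 of *Irf1-/-* (−0.53), WT replicate 3 (−0.56), or WT replicate 4 (−0.57) was left out, after quantile normalization (−0.54), or in DESeq2 with a prior (−0.55). Without a trend in the prior variance of limma, *Psmb9* was the 1 gene of the 5 that was called, and *B2m* was not called (adjusted *P* = 0.0838). *Tap1* lies between *Psmb9* and *Psmb8* in the gene order of GRCm38.p6, and *Tap2* follows *Psmb8*. Of 7 cytosolic and endosomal peptidases, 0 were called in limma, edgeR, or DESeq2, and *Lap3* alone had an unadjusted *P* under 0.05 (−0.31, limma adjusted *P* = 0.16). *Erap1* (−0.77) thus lay outside the range of these peptidases (−0.31 to 0.15).

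Other ER folding genes were set beside *Calr*, *Canx*, and *Pdia3*. Of 17, 1 was called lower and 0 higher, and 7 had an unadjusted *P* under 0.05, all lower, where 8.07% of all tested genes were lower at that level. A log2FC below 0 was found for 16 of the 17 and for 50.4% of all tested genes. The median log2FC was −0.22, and moved to −0.15 without WT replicate 3 and to −0.35 without WT replicate 4. The called gene was *Sdf2l1*, an ER chaperone cofactor, at 3622, 4348, and 2243 normalized counts in the WT replicates and 1632, 2357, and 1602 in the *Irf1-/-* replicates (log2FC −0.84 with SE 0.203, limma adjusted *P* = 0.0386). These values overlapped, and *Sdf2l1* was not called without replicate 2 (limma adjusted *P* = 0.168) or 4 (0.141) of *Irf1-/-*, or without replicate 2 (0.103) or 3 (0.154) of WT, nor by DESeq2 (adjusted *P* = 0.0591), within a range of 0.00206 to 0.363 over the 18 settings. *Hspa5*, encoding the chaperone BiP, was at −0.35 (limma adjusted *P* = 0.377).

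Among the regulators of class I promoters, *Ciita* was called lower, though not by limma without a trend in the prior variance (adjusted *P* = 0.189). The genes of the RFX, NF-Y, and CREB family proteins through which NLRC5 acts were not called, and ranged from *Nfya* (−0.30) to *Rfxank* (0.18). Of 5 other NLR genes, 0 were called in limma, edgeR, or DESeq2 (median 0.19), and 2 had an unadjusted *P* under 0.05, both higher in *Irf1-/-* HSCs. In 3 of the 5, every *Irf1-/-* library lay above every WT library, as in 1853 of all 17404 tested genes. *Nlrc4* had the highest value (1.07, limma adjusted *P* = 0.251) at only 30.3 ± 11.7 (SD, *n* = 3) normalized counts in WT HSCs. Of 8 other transporters of the ABCB family, to which *Tap1* and *Tap2* belong, 0 were called in limma, edgeR, or DESeq2 (range −0.37 to 0.49). At an unadjusted *P* under 0.05, 2 were lower and 1 was higher, where 8.07% of all tested genes were lower at that level.

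Promoter sequences from RefSeq (GRCm38.p6) were matched for 6 of the 9 genes and searched on both strands, from 250 bases before the start of the gene to 50 after it. The motifs were the IRF core AANNGAAA, the double IRF element GAAANNGAAA, whose matches can overlap those of the core, and the STAT element TTCNNNGAA. Over 32851 promoters of the same length, 23.9% held the IRF core, 3.44% the double IRF element, and 8.30% the STAT element. *Erap1* held a double element that begins 4 bases before its start, runs across it, and overlaps a core match, and *Calr* held 2 cores that begin 129 and 59 bases before its start. The promoters of *Tap1*, *Tapbp*, *Canx*, and *Pdia3* held no match, and the STAT element was in 0 of 6. The sequences of *Erap1*, *Calr*, and *Tap1* are given because they set a called gene with a double element beside a gene with cores that was not called and a called gene with neither, from 150 bases before the start, 5′ to 3′ on the strand of the gene, with motif matches in capitals. They lie at chr13:74639703-74639882 (plus strand), chr8:84846902-84847081 (minus strand), and chr17:34187406-34187585 (plus strand), and the double element reads as its reverse complement in *Erap1*.
Erap1: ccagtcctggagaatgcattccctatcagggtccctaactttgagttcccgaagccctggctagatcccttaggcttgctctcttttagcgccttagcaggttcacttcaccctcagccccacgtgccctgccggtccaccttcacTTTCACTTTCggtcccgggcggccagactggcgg
Calr: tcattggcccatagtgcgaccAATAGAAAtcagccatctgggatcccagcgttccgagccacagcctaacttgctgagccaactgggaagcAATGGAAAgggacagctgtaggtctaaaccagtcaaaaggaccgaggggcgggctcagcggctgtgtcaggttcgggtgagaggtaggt
Tap1: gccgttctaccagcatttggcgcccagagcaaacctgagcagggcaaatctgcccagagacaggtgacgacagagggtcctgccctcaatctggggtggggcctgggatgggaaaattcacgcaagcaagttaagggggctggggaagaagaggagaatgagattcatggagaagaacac

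A match of letters is no measure of binding, and its absence from this window says nothing of sites elsewhere. In the lists beside the loading genes, the double element was also found in the promoters of *B2m* and *Psme1*, which fell, and in those of *Ddost*, *Txndc5*, and *Irf2*, which were not called. The promoters of *Psmb8*, *Psmb9*, *Psmb10*, and *Psme2*, which also fell, held neither the core nor the double element. The STAT element was found in *Psmb8*, and in *Irf1*, *Irf2*, *Nfyc*, *Nlrx1*, and *Nod1*, which were not called. *H2-K1* and *H2-D1*, short of the fold change threshold, held the core without the double element. So did *Nrd1*, *Dnajb11*, *Pdia6*, *Rfx5*, *Nod1*, *Abcb1a*, and *Abcb4*, which were not called.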

How the data were processed

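The authors made cDNA from sorted HSCs with the SMART-Seq v4 kit and Nextera XT libraries without molecular identifiers, so reads are not independent molecules. Trim Galore was used for trimming, HISAT2 for alignment to mm39 (the build in the submitters' processing notes), and Htseq-count for counting per gene (versions not given in the sources used here). The deposited unit is a signal, namely counts scaled by the DESeq2 size factor of each library. Whole reads were recovered from it (100% of values within 0.05 of a whole read). Libraries of a genotype differed by more than the counting error of reads (chi-square per gene 16.0 to 30.0). Counting error covers neither amplification nor differences between mice.

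Genotypes were taken from the labels and compared in R 4.3.3 with lmFit and eBayes (with trend) of limma 3.58.1. The scale was log2(normalized count + 1), which understates changes of low genes, and genes with a mean of at least 10 were tested, with Benjamini-Hochberg adjustment over all 17404. Ratios of 2 genes were compared with exact permutation tests in scipy 1.17.1 (3 ratios, not adjusted). Alternatives changed the pseudocount, the filter, the trend, the normalization (quantile or median), the fold change minimum, or the libraries (each left out in turn), added a replicate block, or used edgeR 4.0.16 or DESeq2 1.42.0 (also with a prior) on the recovered reads. The tests were checked on simulated data.

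Named genes are the 9 loading genes, *Irf1*, genes of the lists, the 5 genes most like *Nlrc5* and the 5 most like *Tap1*, and cell type markers. *Cast* was named after its values were seen, because its annotation overlaps that of *Erap1*. A gene of the lists is not reported here. The loading genes and lists were chosen with earlier results of these data known. Exon lengths came from GENCODE vM1 by symbol, as the merged exons of all transcripts of a gene (9 of 9 genes). Gene order and promoters came from tables of GRCm38.p6, which is not the authors' build, so positions are given for promoters only. A comparison of protein sequences was left out. Figures were drawn with matplotlib 3.10.9.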

Additional observations from a re-analysis of the deposited data

How the results depend on the processing

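All 9 loading genes had log2 fold changes below 0 under all 18 alternative settings, and *Tapbpl* was called in each. The filter, the trend, the replicate block, and the fold change minimum leave the fold change itself unaltered by design, and dropping the minimum cannot lose a called gene. The value nearest 0 was that of *Canx* after quantile normalization (−0.019, limma adjusted *P* = 0.906). In limma without a trend in the prior variance, 7 genes were called higher and 33 lower (167 and 166 with it), and 1 loading gene, 0 class I products, 1 immunoproteasome or PA28 gene, 0 ER folding genes, and 0 regulators were called lower, with *Tap1* (−0.63), *Erap1* (−0.77), and *Nlrc5* (−0.61) not called at the same fold changes. Quantile normalization left 2 loading genes called, with *Tap1* at −0.57 and *Nlrc5* at −0.578. With no minimum fold change, 301 genes were higher and 260 lower, and *Tap2* (−0.52), *Tapbp* (−0.45), and 3 class I products passed. DESeq2 called 289 genes higher, 208 lower, and 0 ER folding genes lower, and with a prior it called 0 ER folding genes and put *Nlrc5* at −0.56. The causes of these differences were not tested.

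With 1 library left out at a time, between 83 and 305 genes were called higher and between 105 and 265 lower, the most in both directions without WT replicate 4. Between 2 and 5 loading genes and between 0 and 1 ER folding genes were called lower. The log2 fold change ranged from −0.73 to −0.55 for *Tap1*, from −0.68 to −0.42 for *Tap2*, and from −0.69 to −0.56 for *Nlrc5*.

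The replicate block called 219 genes higher, 196 lower, and 4 loading genes lower, and gave *Pdia3*, still short of the minimum fold change, a limma adjusted *P* of 0.00822. Same-numbered libraries did not deviate together in each pair (correlation −0.094 for replicates 2, 0.25 for replicates 3, and 0.15 for replicates 4). Not every library correlated best with its own number. A pairing of the mice by number was therefore not shown, and the mice were not treated as pairs in the main comparison. The fewest reads of a loading gene in a library were 1614 (*Tapbpl*), and the parts of depth, amplification, and the number of mice in the precision were not tested.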
